A study of Mus musculus with 15 samples.

Results

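The collagen genes were taken as every row of the count table whose symbol has the form Col, a type number, the letter a and a chain number. This gave 43 genes of 23284 symbols, in 9 structural classes, and each of them had at least 1 count in some library. They were followed in 3 groups of mouse liver tissue. The first group was 6 liver tumours from mice homozygous for a floxed Hmgb1 allele (labelled Hgmb1fl/fl) that served as floxed controls. The second was 6 liver tumours from mice that carry the same floxed alleles and express Cre from the Albumin promoter, so that Hmgb1 is deleted in the liver (labelled Hgmb1Dhep). Tumour mice of both genotypes had received the carcinogen diethylnitrosamine (DEN) at 25 mg/kg by intraperitoneal injection on day 15 after birth. They then received the hepatotoxin carbon tetrachloride (CCl4) at 0.5 ul/g each week for 15 weeks from week 8. The third group was 3 normal livers of control C57Bl/6 mice, for which no treatment is named. A tumour therefore differs from normal liver in treatment as well as in being a tumour, and the background strain of the tumour mice is not given in the sources used here. Albumin-Cre acts in hepatocytes and related epithelium and would leave Hmgb1 intact in the stromal cells of a tumour.

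Collagens are triple helices of alpha chains and the main proteins of the extracellular matrix. Fibril-forming types such as I and III make the fibres that accumulate in liver scarring, type IV makes the sheet-like network of basement membranes, and type VI makes beaded filaments around cells. Other types decorate fibrils, span membranes or, in the case of type XVIII, sit in basement membranes as a proteoglycan core. In the injured liver, fibrillar collagen comes mostly from stellate cells and portal fibroblasts that have become myofibroblasts, whereas hepatocytes are a known source of type XVIII. Libraries were made from whole tissue, so fewer cells of a type and less RNA per cell cannot be told apart.

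Sequences before the transcription starts of 4 collagen genes are shown because these genes carry the patterns described below. Col1a2 and Col3a1 are fibril genes that peak together in one tumour, Col18a1 is the most abundant collagen and fell in tumours, and Col4a4 rose strongly in tumours. They come from RefSeq on build GRCm38.p6, in the direction of transcription, and capitals mark the letters of a CCAAT box, a GC box (GGGCGG) or a TATA box (TATAAA), read on either strand. For Col1a2 (chr6:4505368-4505617 on the plus strand), Col3a1 (chr1:45311288-45311537 on the plus strand) and the first listed start of Col18a1 (chr10:77166531-77166780 on the minus strand) the 250 bases before the start are given, and for Col4a4 (chr1:82586850-82586919 on the minus strand) the 70 bases nearest to it.
Col1a2: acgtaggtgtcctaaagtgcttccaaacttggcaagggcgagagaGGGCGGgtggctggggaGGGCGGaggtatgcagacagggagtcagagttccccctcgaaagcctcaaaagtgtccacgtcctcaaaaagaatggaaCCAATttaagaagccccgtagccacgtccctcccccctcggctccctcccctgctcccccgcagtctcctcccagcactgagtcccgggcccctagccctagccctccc
Col3a1: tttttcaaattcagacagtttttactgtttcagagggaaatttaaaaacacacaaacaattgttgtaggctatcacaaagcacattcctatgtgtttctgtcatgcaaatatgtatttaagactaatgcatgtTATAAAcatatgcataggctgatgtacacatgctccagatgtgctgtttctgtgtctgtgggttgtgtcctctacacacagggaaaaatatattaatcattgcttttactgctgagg
Col18a1: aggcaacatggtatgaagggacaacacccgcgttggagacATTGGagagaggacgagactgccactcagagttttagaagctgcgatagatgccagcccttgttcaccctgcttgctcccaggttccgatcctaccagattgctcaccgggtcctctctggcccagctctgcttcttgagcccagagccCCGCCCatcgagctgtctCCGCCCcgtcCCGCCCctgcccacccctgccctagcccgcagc
Col4a4: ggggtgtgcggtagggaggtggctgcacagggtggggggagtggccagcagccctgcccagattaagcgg

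The Col1a2 stretch held 2 GC boxes, beginning 205 and 188 bases before the start, and 1 CCAAT box beginning 109 bases before it. The Col3a1 stretch was AT-rich (35.2% G or C) and held 1 TATAAA, 117 bases before the listed start. Col18a1 held 3 GC boxes within 61 bases of its first listed start, and 1 CCAAT box beginning 210 bases before it. The window of its second listed start held none of these letters, and neither did the Col4a4 stretch. Which Col18a1 start was used was not tested. Windows from 250 bases before to 50 after the start were listed for 35 of the 43 collagens, 38 windows in all. GGGCGG was in 23 of the 38 (60.5%), against 35.7% of 32851 windows of that length for all genes. The collagen windows held from 37.7% (Col3a1) to 75.0% (Col5a1) G or C, and the median over all genes was 52.7%. Base composition was not taken into account in these shares. CCAAT was in 34.2% of the collagen windows against 37.4%, and TATAAA in 13.2% against 13.6%. The listed starts of Col4a1 and Col4a2, which encode the common chains of type IV collagen and are transcribed away from each other, lie 21 bases apart, and those of Col4a5 and Col4a6 lie 1343 bases apart. Without a stated strand setting, reads from overlapping genes on opposite strands cannot be told apart. In the GENCODE annotation, exons of Col4a1 and Col4a2 overlap each other, and among the collagens named here exons of Col4a2, Col4a3, Col5a1, Col15a1 and Col22a1 overlap other genes on the opposite strand. Exons of Col3a1 and Col20a1 overlap other genes on the same strand. The counts of all these genes carry that uncertainty.

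Libraries held 18973246 to 30929442 counts, so that 3 counts correspond to 0.11 to 0.169 CPM (counts per library size, after TMM scaling over all 15 libraries). Hmgb1 itself stood at 14.8 ± 2.76 CPM (SD, n = 6) in the tumours labelled as deleted and at 27.9 ± 3.36 CPM (SD, n = 6) in floxed tumours, with no overlap (9.59 to 17.8 against 23.3 to 31.8), and at 23.9 ± 6.07 CPM (SD, n = 3) in normal liver. Summed hepatocyte markers (albumin and 4 others) lay between 66904 and 274033 CPM in every library, most of it albumin. Of the 5 markers, 1 was higher and 2 lower in floxed tumours than in normal liver, and 1 was lower in deleted tumours, with the urea cycle gene Cps1 at 3811 CPM in normal liver, 454 CPM in floxed and 553 CPM in deleted tumours (group means). Of all genes tested, 24.9% were higher and 23.8% lower in floxed tumours, and 18.1% and 16.6% in deleted tumours. One library, floxed tumour 5, stood apart for collagens: among floxed tumours it was the highest for 18 of the 27 collagens tested between the tumour groups, whereas it was the highest for 24.5% of all 13433 genes tested there. Among deleted tumours, tumour 2 was the highest for 11 of the 27, against 15.4% of all genes. Collagen results that rest on floxed tumour 5 are given with and without it. Fits of partner genes are given only with it. That library was singled out by the collagen values themselves. Leaving it out also narrows the spread of the collagens for which it is extreme, so their p-values without it are descriptive. Nothing in the labels says whether the libraries of a group came from separate animals, so the p-values reflect only how much these samples vary, which may be technical.

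Collagen mRNA of normal liver was mostly Col18a1, whose protein is the core of type XVIII collagen and the source of endostatin. The 43 collagens together summed to 1628 to 1751 CPM in normal liver, and to 365 to 501 CPM without Col18a1. In floxed tumours the sum was 1035 to 1310 CPM in 5 libraries and 3270 CPM in floxed tumour 5, and in Hmgb1-deleted tumours it was 1072 to 1691 CPM. Without Col18a1 these sums were 446 to 684 CPM in the 5 floxed tumours, 2899 CPM in floxed tumour 5 and 434 to 1172 CPM in the deleted tumours. Per kilobase of annotated exon, Col18a1 was first in all 3 groups, at 185 ± 7.79 CPM per kb (SD, n = 3) in normal liver, 88.4 ± 17.9 (SD, n = 6) in floxed and 88.2 ± 12.7 (SD, n = 6) in deleted tumours. The order below it differed by group on this per-length scale. In normal liver Col5a3 (11.6 ± 1.22 CPM per kb, SD, n = 3) and Col27a1 (9.20 ± 1.32) came next, followed by Col14a1 (7.75 ± 2.18) and Col3a1 (7.57 ± 2.39), which did not differ beyond their spread. In both tumour groups Col3a1, Col4a1 and Col1a2 came next, at 26.7, 21.5 and 18.1 CPM per kb in floxed and 20.3, 20.2 and 12.4 CPM per kb in deleted tumours. The SDs of these 3 in floxed tumours (18.5 to 34.4 CPM per kb) were close to the levels or above them, so their order is not resolved. Without floxed tumour 5, the floxed order below Col18a1 was Col4a1 (14.1 ± 4.43 CPM per kb, SD, n = 5), Col3a1 (12.7 ± 3.55), Col4a2 (9.47 ± 2.89) and Col1a2 (6.78 ± 2.46), in which neighbours did not differ beyond their spread.

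**Figure D1:**
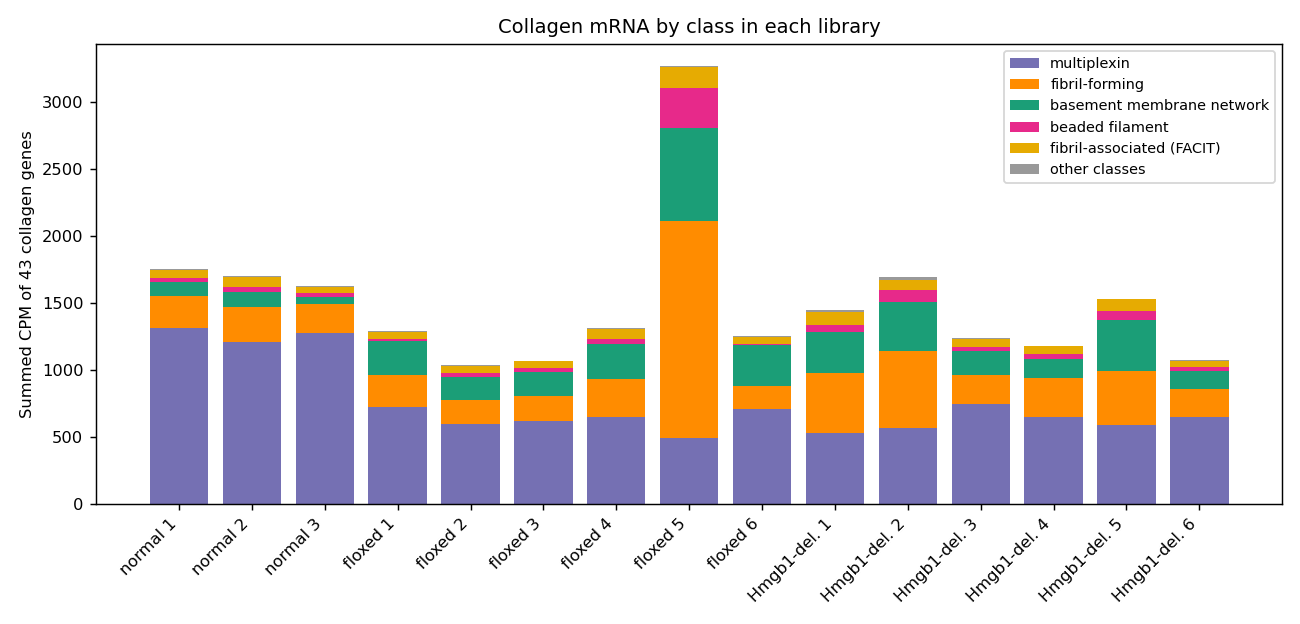
Summed CPM of the 43 collagen genes in each of the 15 libraries (vertical axis, linear, from 0), stacked by structural class. Multiplexin mRNA, the sum of Col18a1 and Col15a1, takes up most of each normal liver bar (1210 to 1315 CPM) and a smaller amount in each tumour (487 to 744 CPM), while fibril-forming mRNA reaches 1624 CPM in floxed tumour 5.

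Against normal liver, floxed tumours had 8 collagens higher and 4 lower of 29 tested (edgeR quasi-likelihood F test, p adjusted by Benjamini-Hochberg over all genes and under 0.05). Over all 13784 genes tested, 24.9% were higher and 23.8% lower. The median log2 fold change was 1.40 over the 29 collagens and 0.06 over all genes tested. Hmgb1-deleted tumours had 7 collagens higher and 1 lower than normal liver of 29 tested, where 18.1% of 13784 genes were higher and 16.6% lower, with medians of 1.08 and 0.05. These comparisons share the 3 normal livers. Leaving out any 1 of them left 5 collagens called for floxed tumours and 3 for deleted tumours, these 3 being Col4a3, Col4a4 and Col18a1. Calls over all genes fell as well, to 4860 of 14048, 4934 of 14053 and 5344 of 14063 for floxed tumours. For deleted tumours they fell to 2113 of 14064, 2227 of 14065 and 3109 of 14073. Without deleted tumour 1, the calls of Col1a2, Col5a2, Col6a3 and Col6a5 in deleted tumours ended as well. Those of Col1a2 and Col5a2 also ended without deleted tumour 2, and those of Col1a2, Col5a2 and Col6a3 without deleted tumour 5. The Col1a2 and Col5a2 calls in deleted tumours each held in 12 of 21 other settings. Without floxed tumour 5, 19 collagens passed in floxed tumours, 12 higher and 7 lower, including all 12 of those called with it, where 25.9% of all genes were higher and 24.6% lower, and the median over collagens was 0.64.

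Between the tumour groups, which is the comparison of Hmgb1 deletion itself, no collagen passed the test among 27 tested (edgeR, Benjamini-Hochberg). Of all 13433 genes tested, 4.45% were higher and 3.33% lower in the deleted tumours. At an unadjusted p under 0.05, 4 of the 27 collagens passed, 2 higher and 2 lower, and 24.3% of all genes did. The median log2 difference, deleted minus floxed, was -0.36 over the collagens and 0.02 over all genes. The median standard error of a collagen's log2 difference was 0.56, against 0.21 over all genes, so smaller differences were harder to detect for collagens than for a typical gene. DESeq2 called 3 collagens in the same comparison, Col4a3, Col11a2 and Col17a1, all lower in deleted tumours, of 43 fitted. Of 18848 genes fitted by DESeq2, 5.46% were higher and 5.49% lower. Without floxed tumour 5 the edgeR test called 2 of 27, Col4a3 lower and Col6a1 higher, where 3.53% of all genes were higher and 3.29% lower, and the median log2 difference turned to 0.55.

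**Figure D2:**
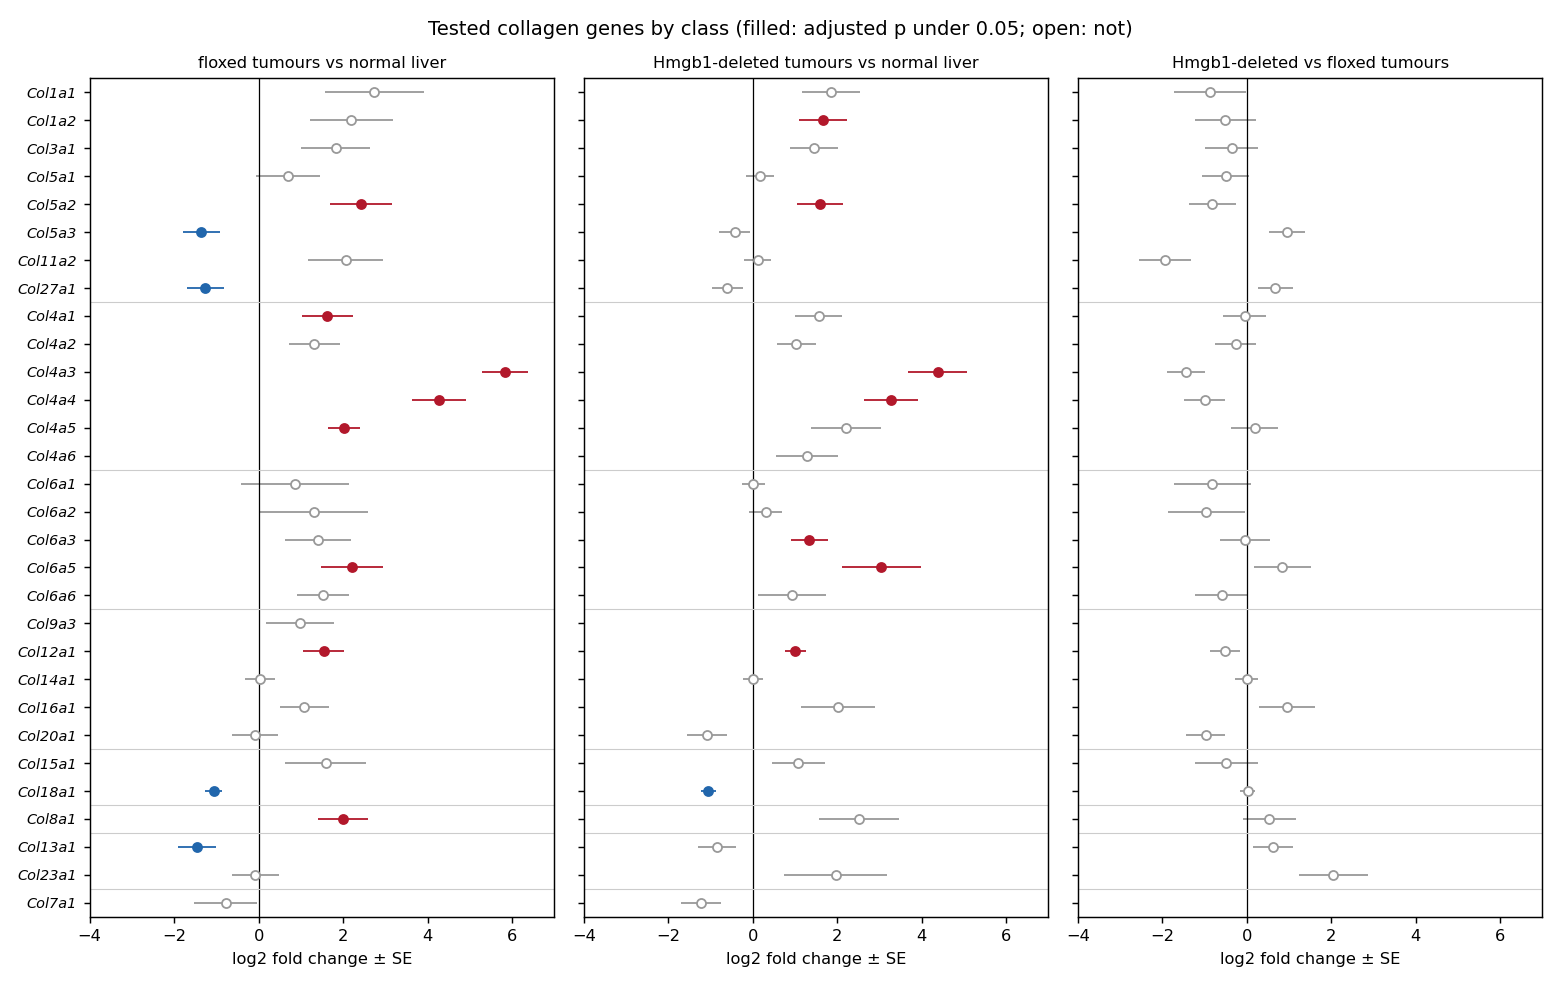
Log2 fold change ± SE (horizontal axis) of each tested collagen in the 3 comparisons, with grey lines between structural classes, red for higher and blue for lower at an adjusted p under 0.05 and open grey circles for the rest. Col4a3 and Col4a4 lie far to the right in both comparisons with normal liver and left of 0 between the tumour groups, where no circle is filled.

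The 2 largest rises of any collagen in each comparison with normal liver were those of the basement membrane genes Col4a3 and Col4a4. In deleted tumours the second rank is not resolved, as Col4a4 (3.28 ± 0.65) and Col6a5 (3.05 ± 0.94) lay within their SEs. Of the 6 type IV genes, 4 of 5 tested were higher in floxed tumours than in normal liver and 2 of 6 tested in deleted tumours, and none was lower, beside 24.9% and 18.1% of all genes higher. Col4a3 and Col4a4 encode chains that join with the Col4a5 chain in specialised membranes such as the kidney glomerulus, and Col4a1 and Col4a2 encode the chains present in nearly all basement membranes. The summed level of the 6 genes was 58.6, 102 and 110 CPM in normal livers, 172 to 698 CPM in floxed tumours and 132 to 378 CPM in deleted tumours.

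Col4a3 was at 0.528, 1.22 and 0.936 CPM in the 3 normal livers. In floxed tumours 1 to 6 it was at 95.0, 38.4, 41.4, 50.4, 21.9 and 62.5 CPM, and in deleted tumours 1 to 6 at 14.4, 8.58, 38.6, 19.4, 5.45 and 25.5 CPM. Every tumour lay above every normal liver, whereas the tumour groups overlapped. The log2 fold change against normal liver was 5.84 ± 0.54 (SE) in floxed tumours (edgeR adjusted p = 2.44e-05) and 4.38 ± 0.70 in deleted tumours (edgeR adjusted p = 0.00297). Deleted tumours were lower than floxed tumours by a log2 difference of -1.45 ± 0.45, which missed the threshold (edgeR adjusted p = 0.0654) and was the smallest adjusted p of any collagen in that comparison. This difference was negative in all 23 other settings, and passed the threshold in 8 of them, among them DESeq2 (adjusted p = 0.0124), voom (0.0424) and the fit without floxed tumour 5 (log2 difference -1.61, edgeR adjusted p = 0.0481), but not without floxed tumour 1 (-1.19, edgeR adjusted p = 0.134). Floxed tumour 5, the highest of all libraries for Col1a1, Col1a2, Col3a1, Col5a1 and Col5a2, was the lowest floxed tumour for Col4a3.

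Col4a4 was lower in level, at 0.244 to 0.487 CPM in normal liver, 2.43 to 12.3 CPM (median 5.76) in floxed tumours and 0.895 to 6.64 CPM (median 3.30) in deleted tumours. Again no tumour overlapped normal liver. Its log2 fold change was 4.28 ± 0.64 in floxed tumours (edgeR adjusted p = 0.000443) and 3.28 ± 0.65 in deleted tumours (edgeR adjusted p = 0.0062), and -0.99 ± 0.49 between the tumour groups (adjusted p = 0.23). Per exon length, Col4a3 mRNA exceeded Col4a4 mRNA in every library, by a ratio of 6.10 to 11.99 in floxed tumours, 4.09 to 7.63 in deleted tumours and 1.27 to 5.23 in normal liver. Floxed tumours 1 and 6 were the 2 highest for both genes, and deleted tumour 5 was the lowest tumour for both.

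Col4a5 was at 2.73 to 3.86 CPM in normal liver, 7.91 to 24.1 CPM (median 13.5) in floxed tumours and 1.48 to 42.2 CPM (median 12.6) in deleted tumours. All floxed tumours lay above normal liver, with a log2 fold change of 2.02 ± 0.38 (edgeR adjusted p = 0.00168). Deleted tumours spread over both sides of normal liver, from tumour 6 at the low end to tumour 2 at the high end, and the change there did not pass (2.20 ± 0.83, edgeR adjusted p = 0.0625). Its X-linked neighbour Col4a6 stayed at or under 1.56 CPM in every library.

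Col4a1 was at 26.9 to 58.8 CPM in normal liver, 68.5 to 387 CPM (median 96.1) in floxed tumours and 59.4 to 225 CPM (median 127) in deleted tumours. No tumour overlapped normal liver, but the lowest tumour, deleted tumour 4, and the highest normal liver were nearly level. The log2 fold change was 1.63 ± 0.60 in floxed tumours (edgeR adjusted p = 0.0452), or 1.02 without floxed tumour 5 (edgeR adjusted p = 0.0227), and 1.56 ± 0.56 in deleted tumours (edgeR adjusted p = 0.0541). The Col4a1 call in floxed tumours held in 10 of 19 other settings. Col4a2 was at 26.4 to 46.8 CPM in normal liver and overlapped both tumour groups, with log2 fold changes of 1.32 ± 0.60 and 1.04 ± 0.46 that did not pass the test (edgeR adjusted p = 0.092 and 0.103). In floxed tumours without floxed tumour 5, Col4a2 was at 0.65 (edgeR adjusted p = 0.0704). The ratio of Col4a1 to Col4a2 mRNA per exon length was 0.993 to 1.22 in normal liver, 1.37 to 1.61 in floxed tumours and 1.32 to 1.96 in deleted tumours.

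**Figure D3:**
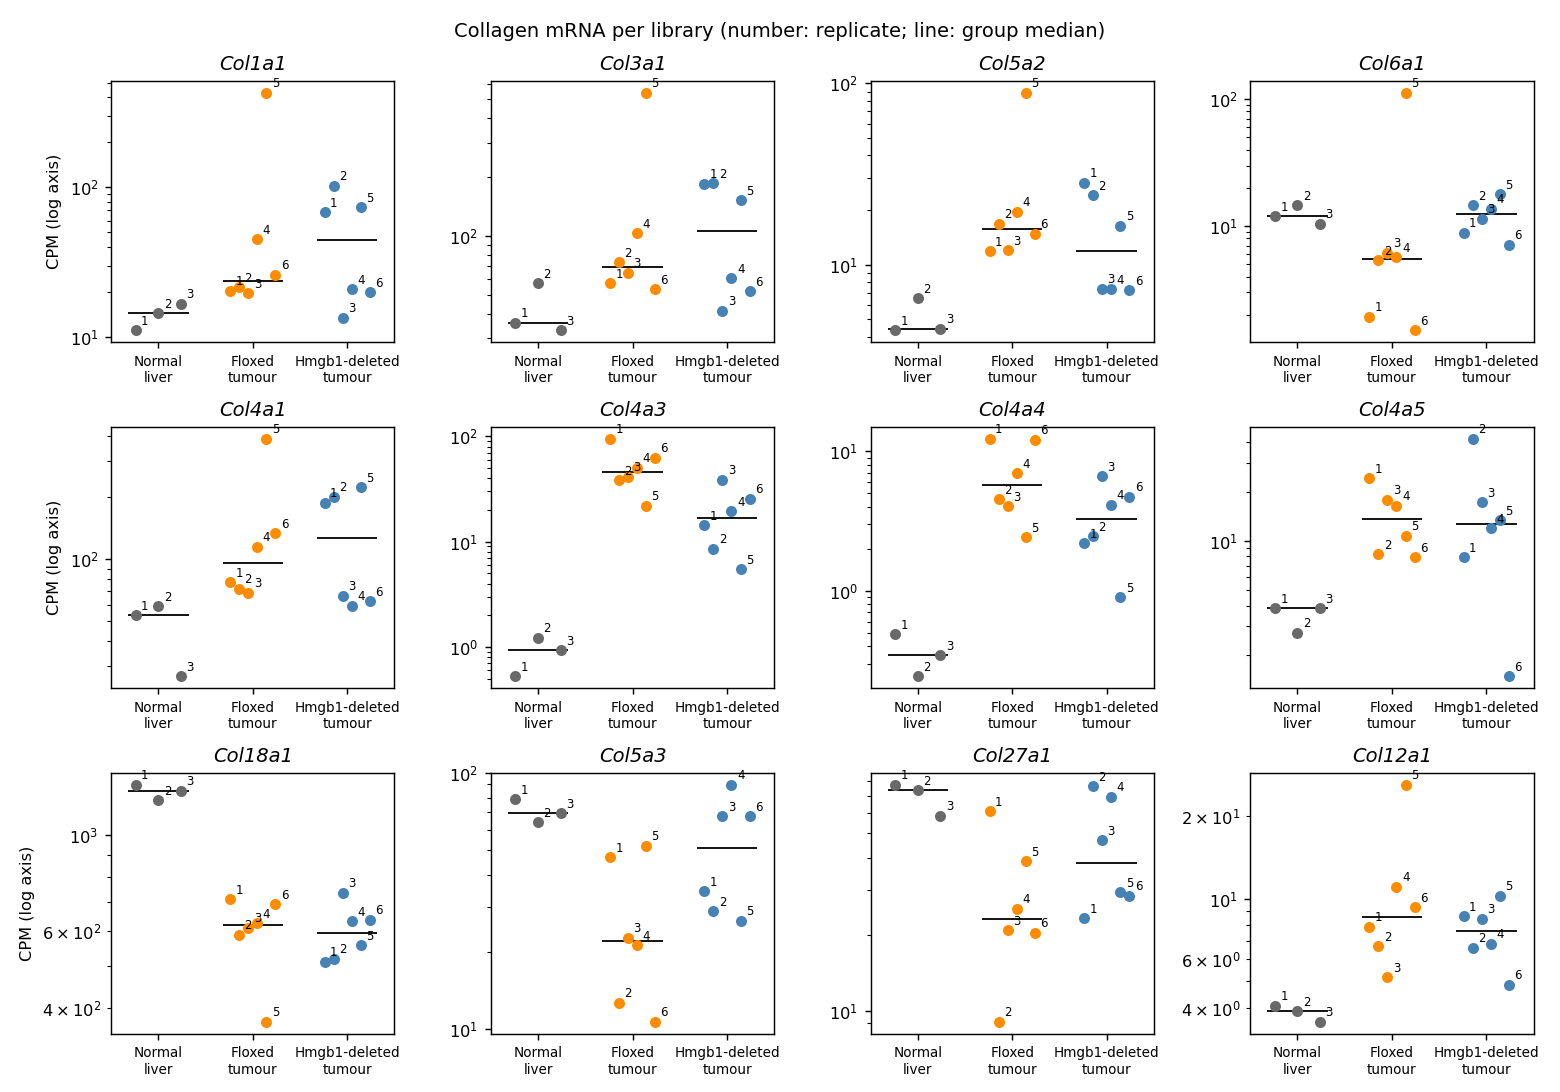
CPM (log axis, its range set for each gene) of 12 collagen genes in 3 normal livers, 6 floxed tumours and 6 Hmgb1-deleted tumours, with points numbered by replicate and lines at group medians. Floxed tumour 5 is far above the other floxed tumours for Col1a1 (427 CPM), Col3a1 (538 CPM) and Col6a1 (112 CPM), but lowest among them for Col4a3 and Col18a1.

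Type XVIII collagen fell. Col18a1 was at 1306, 1200 and 1263 CPM in normal livers, 371 to 712 CPM (median 619) in floxed tumours and 511 to 735 CPM (median 595) in deleted tumours. Every tumour lay below every normal liver. The log2 fold change was -1.06 ± 0.21 in floxed tumours (edgeR adjusted p = 0.00197) and -1.05 ± 0.18 in deleted tumours (edgeR adjusted p = 0.00355), and 0.02 ± 0.18 between the tumour groups (edgeR adjusted p = 0.967). The other member of the same class, Col15a1, a basement membrane proteoglycan of vessels and muscle, was at 8.90 to 10.1 CPM in normal liver 5.39 to 19.2 CPM in 5 floxed tumours, 116 CPM in floxed tumour 5 and 5.99 to 44.5 CPM in deleted tumours. Its log2 fold change did not pass the test in either tumour group (1.59 ± 0.95, edgeR adjusted p = 0.189, and 1.08 ± 0.62, edgeR adjusted p = 0.196), and was 0.22 in floxed tumours without floxed tumour 5.

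Few fibril-forming collagens passed the test, in both directions in floxed tumours and only as higher in deleted tumours. Of 8 tested, 1 was higher (Col5a2) and 2 lower (Col5a3 and Col27a1) in floxed tumours than in normal liver, and 2 were higher (Col1a2 and Col5a2) and none lower in deleted tumours, beside 24.9% higher and 23.8% lower of all genes in floxed and 18.1% and 16.6% in deleted tumours. Without floxed tumour 5, 4 fibril-forming genes were higher in floxed tumours (Col1a1, Col1a2, Col3a1 and Col5a2) and Col5a3 and Col27a1 were lower. Col1a1 and Col1a2 encode the chains of type I collagen, and Col3a1 that of type III, the main fibres of scar tissue. Col1a1 was at 11.1, 14.5 and 16.7 CPM in normal livers, at 19.6 to 44.8 CPM in 5 floxed tumours and at 427 CPM in floxed tumour 5. In deleted tumours 1 to 6 it was at 68.1, 102, 13.4, 20.8, 73.4 and 19.9 CPM. All floxed tumours were above normal liver, whereas deleted tumour 3 lay within its range.

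The log2 fold change of Col1a1 against normal liver was 2.74 ± 1.18 in floxed tumours (edgeR adjusted p = 0.0768) and 1.85 ± 0.68 in deleted tumours (edgeR adjusted p = 0.059). Without floxed tumour 5, the library with the highest Col1a1, the floxed value was 0.92, smaller but past the threshold (edgeR adjusted p = 0.0276). Col1a2 was at 18.4 to 24.9 CPM in normal liver, 28.4 to 59.6 CPM in 5 floxed tumours, 399 CPM in floxed tumour 5 and 27.1 to 135 CPM (median 59.6) in deleted tumours, so no tumour overlapped normal liver. Its log2 fold change was 1.66 ± 0.57 in deleted tumours (edgeR adjusted p = 0.0468), and in floxed tumours 2.20 ± 0.98 (edgeR adjusted p = 0.0865) or 0.77 without floxed tumour 5 (edgeR adjusted p = 0.0333). Col3a1 was at 33.0 to 57.4 CPM in normal liver, 53.5 to 103 CPM in 5 floxed tumours, 538 CPM in floxed tumour 5 and 41.5 to 186 CPM (median 106) in deleted tumours, with overlap in both groups. Its log2 fold change was 1.83 ± 0.82 in floxed tumours (edgeR adjusted p = 0.086) or 0.75 without floxed tumour 5 (edgeR adjusted p = 0.0358), and 1.45 ± 0.56 in deleted tumours (edgeR adjusted p = 0.0691).

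The balance of the fibril chains was tested as a log2 ratio within each library (pseudocount of 1 count), by exact two-sided permutation tests adjusted over 6 tests. The Col1a1 to Col1a2 ratio differed by -0.16 between deleted and floxed tumours (adjusted p = 0.771), by 0.23 between floxed tumours and normal liver (adjusted p = 0.771) and by 0.08 between deleted tumours and normal liver (adjusted p = 0.8). The Col3a1 to Col1a1 ratio differed by 0.06, -0.29 and -0.24 in the same comparisons (adjusted p = 0.831, 0.786 and 0.771, exact permutation tests). With 6 libraries against 3 the smallest unadjusted p these tests allow is 0.0238. After adjustment over the 6 tests, 1 ratio at that floor could not pass alone. The tests against normal liver therefore do not show that the balance was unchanged. Per exon length, Col1a1 mRNA was at 0.448 to 0.965 of Col1a2 mRNA over all 15 libraries, with floxed tumour 5 at the top.

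The minor fibril collagens of type V divided. Col5a2 was at 4.35 to 6.52 CPM in normal liver, 11.9 to 88.5 CPM (median 15.8) in floxed tumours and 7.22 to 28.2 CPM (median 11.9) in deleted tumours, with no overlap. It rose by a log2 fold change of 2.43 ± 0.73 in floxed tumours (edgeR adjusted p = 0.0195), or 1.56 without floxed tumour 5 (edgeR adjusted p = 0.000553), and 1.60 ± 0.54 in deleted tumours (edgeR adjusted p = 0.0447). Col5a3 was at 64.2 to 78.9 CPM in normal liver, 10.7 to 51.9 CPM (median 22.1) in floxed tumours and 26.5 to 90.0 CPM (median 51.0) in deleted tumours. It fell in floxed tumours (-1.35 ± 0.44, edgeR adjusted p = 0.0281), which did not overlap normal liver, and not beyond the threshold in deleted tumours (-0.42 ± 0.37, edgeR adjusted p = 0.382). Between the tumour groups its log2 difference was 0.95 ± 0.43 (edgeR adjusted p = 0.192), and voom with sample weights called it higher in deleted tumours. Col5a1, which encodes the chain that nucleates fibrils, was at 10.3 to 17.4 CPM in normal liver and 6.80 to 20.3 CPM in all tumours except floxed tumour 5 (75.2 CPM), with a log2 fold change in floxed tumours of 0.69 ± 0.76 (edgeR adjusted p = 0.471) or -0.38 without that library (edgeR adjusted p = 0.224).

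Col27a1, a fibrillar collagen of cartilage, was at 58.6 to 77.6 CPM in normal liver, 9.10 to 61.0 CPM (median 23.1) in floxed tumours and 23.2 to 76.4 CPM (median 38.1) in deleted tumours. Its log2 fold change was -1.26 ± 0.43 in floxed tumours (edgeR adjusted p = 0.034) and -0.60 ± 0.37 in deleted tumours (edgeR adjusted p = 0.226). In floxed tumours, the Col27a1 call held in 9 of 19 other settings and the Col5a3 call in 13 of 19. Both were lost with upper-quartile scaling or library totals alone. Col11a2, another fibrillar chain, was at 0.69 to 9.74 CPM in floxed and 0.66 to 1.07 CPM in deleted tumours, with a log2 difference of -1.94 ± 0.61 (edgeR adjusted p = 0.0697).

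**Figure D4:**
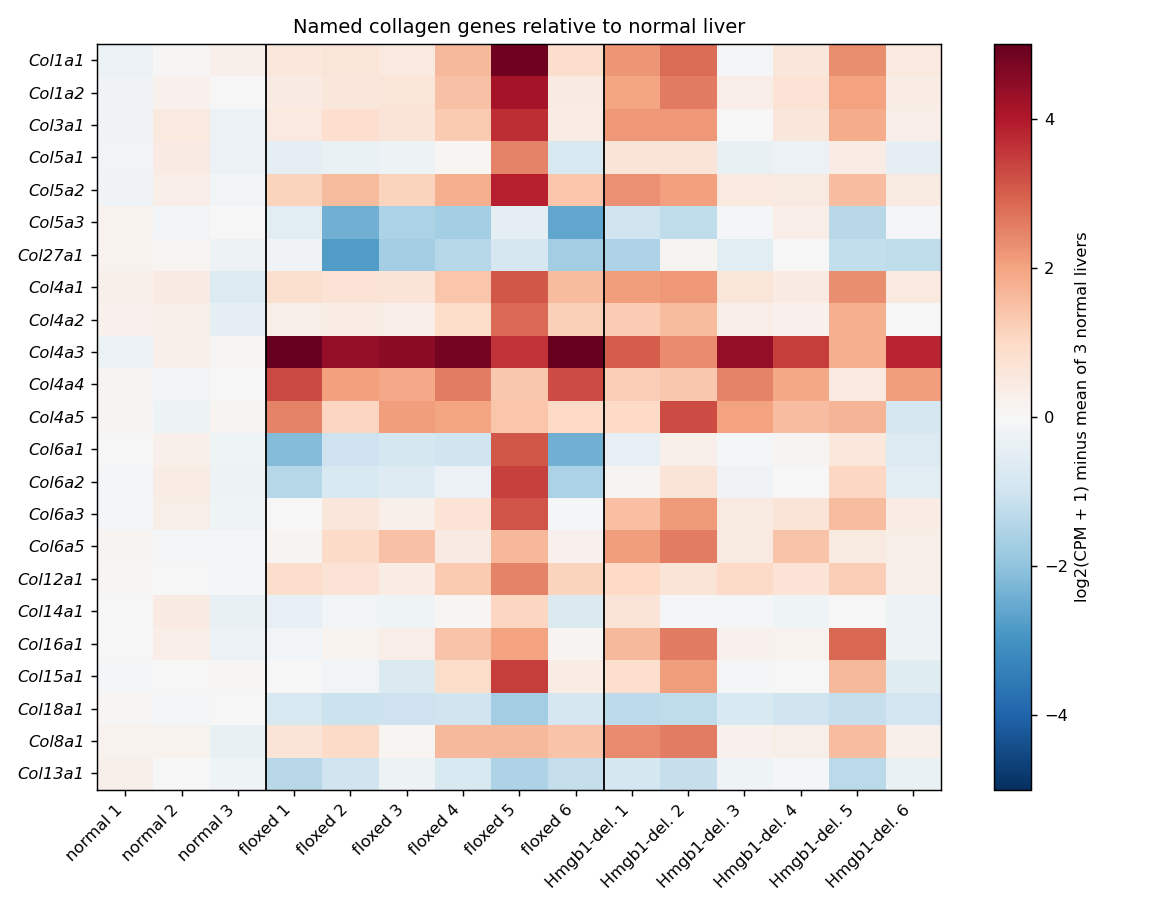
Log2(CPM + 1) of the 23 named collagens minus the mean of the 3 normal livers, by library (columns) and gene (rows, ordered by class), from blue (lower) to red (higher). The Col4a3 row is red in every tumour, the Col18a1 row is blue in every tumour, and the floxed tumour 5 column is red for Col1a1, Col1a2, Col3a1, Col5a1, Col5a2 and the type VI genes, and blue for Col5a3, Col27a1 and Col18a1.

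The direction of Col6a1 and Col6a2, of type VI collagen, turned on 1 library. Col6a1 and Col6a2 encode short chains that join with the long chain of Col6a3 in beaded filaments. Col6a1 was at 10.4 to 14.6 CPM in normal liver, 1.51 to 6.15 CPM in 5 floxed tumours, 112 CPM in floxed tumour 5 and 7.14 to 17.8 CPM (median 12.5) in deleted tumours. The 5 floxed tumours lay below all normal livers and all deleted tumours. The log2 fold change of Col6a1 in floxed tumours was 0.87 ± 1.27 (edgeR adjusted p = 0.596) with floxed tumour 5 and -1.57 without it (edgeR adjusted p = 0.0131). Between the tumour groups it was -0.82 ± 0.91 (edgeR adjusted p = 0.632) with that library and 1.59 without it (edgeR adjusted p = 0.0347).

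Col6a2 had the same kind of pattern, with 4.68 to 7.66 CPM in normal liver, 1.23 to 4.54 CPM in 5 floxed tumours and 72.0 CPM in floxed tumour 5. Its log2 fold change in floxed tumours was 1.31 ± 1.29 (edgeR adjusted p = 0.42), and -1.10 without floxed tumour 5 (edgeR adjusted p = 0.0431). Col6a3 was at 9.996 to 14.4 CPM in normal liver, 10.98 to 19.2 CPM in 5 floxed tumours, 112 CPM in floxed tumour 5 and 15.4 to 54.3 CPM (median 26.9) in deleted tumours. It rose in deleted tumours, which did not overlap normal liver (1.34 ± 0.44, edgeR adjusted p = 0.04), and its change in floxed tumours did not pass (1.40 ± 0.79, edgeR adjusted p = 0.161, or 0.32 without floxed tumour 5, edgeR adjusted p = 0.263). The Col6a3 call in deleted tumours held in 13 of 21 other settings. Col6a5, at 0.246 to 0.447 CPM in normal liver, was higher in both tumour groups, with log2 fold changes of 2.21 ± 0.74 (edgeR adjusted p = 0.0299) and 3.05 ± 0.94 (edgeR adjusted p = 0.032). Its levels in tumours remained at or below 6.73 CPM.

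Among the collagens that sit on fibrils or in membranes, Col12a1, which coats type I fibrils, was at 3.55 to 4.06 CPM in normal liver, 5.17 to 26.1 CPM (median 8.60) in floxed tumours and 4.84 to 10.3 CPM (median 7.64) in deleted tumours. No tumour overlapped normal liver, and Col12a1 rose in both groups (1.54 ± 0.49, edgeR adjusted p = 0.0237, and 1.01 ± 0.24, edgeR adjusted p = 0.0129). Col14a1, a relative of Col12a1, was at 37.1 to 65.0 CPM in normal liver and had log2 fold changes of 0.03 ± 0.36 and 0.02 ± 0.23. Col16a1 reached 28.0 CPM in deleted tumour 5 and 22.9 CPM in deleted tumour 2 against 2.22 to 3.95 CPM in normal liver, with changes that did not pass (1.09 ± 0.58 and 2.02 ± 0.87, edgeR adjusted p = 0.145 and 0.0943). Col8a1, a short-chain collagen of vessel walls, rose in floxed tumours (1.99 ± 0.60, edgeR adjusted p = 0.0186) from 0.295 to 0.896 CPM in normal liver to a median of 2.83 CPM. Its change in deleted tumours was 2.52 ± 0.94 (edgeR adjusted p = 0.0622). The transmembrane collagen Col13a1 fell in floxed tumours (-1.46 ± 0.46, edgeR adjusted p = 0.0235), from 2.66 to 4.06 CPM in normal liver to 0.470 to 2.56 CPM. That call held in 15 of 19 other settings and was lost, among others, with the replicate block (-1.31, edgeR adjusted p = 0.0621).

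The remaining 20 collagens had group means of at most 4.11 CPM. Several had no count in some libraries, among them Col2a1 and Col11a1 of cartilage. Single tumours stood out among them: Col23a1 reached 6.39 CPM in 1 deleted tumour, Col22a1 reached 3.88 CPM in 1 floxed tumour, and Col20a1 spread from 1.52 to 8.66 CPM over floxed tumours.

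Cell type markers were read beside these values. Floxed tumour 5, the collagen-rich library, had summed quiescent stellate cell markers of 314 CPM, against 92.2 to 171 CPM in the other floxed tumours, with 7 of the 8 markers at their floxed maximum there. Pdgfrb, a receptor of stellate cells and pericytes, was at 82.1 CPM there, 5.51 times the median of the other 5. Markers of myofibroblasts and portal fibroblasts summed to 113 CPM against 45.4 to 81.8 CPM, with 3 of 7 highest in that library. Those of sinusoidal endothelium summed to 415 CPM against 163 to 250 CPM, with 5 of 6 highest there and Clec4g, at 27.0 CPM, 0.444 times the median of the others. Mesothelial markers summed to 13.6 CPM against 0.716 to 3.27 CPM (4 of 4 highest there), and cholangiocyte markers to 1765 CPM against 60.3 to 1566 CPM (5 of 5 highest there). Vascular smooth muscle markers summed to 25.3 CPM against 11.4 to 17.8 CPM (1 of 3 highest there), with Cnn1 lowest there at 0.0392 CPM. The 1 highest was Des, which is in the quiescent stellate cell list as well and made up 15.7 CPM of that sum. Myh11, at 9.56 CPM in floxed tumour 5, was below its level in floxed tumour 6 (12.7 CPM). The macrophage and leukocyte sums lay within the range of the other floxed tumours. They were 156.5 CPM against 81.9 to 184 CPM (1 of 4 highest there) and 45.3 CPM against 20.2 to 54.9 CPM (0 of 4). The hepatocyte marker sum of floxed tumour 5 was 104866 CPM against 153416 to 274033 CPM. The part of cell composition in its collagen levels was not tested.

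In deleted tumours 1, 2 and 5, where Col1a1 was at 68.1 to 102 CPM, the myofibroblast and portal fibroblast markers summed to 104, 89.6 and 68.2 CPM, and in deleted tumours 3, 4 and 6 they summed to 43.2, 52.3 and 40.4 CPM. Over groups this sum was 45.4 to 113 CPM in floxed tumours, 40.4 to 104 CPM in deleted tumours and 21.6 to 29.9 CPM in normal livers, with 4 and 3 of 6 tested markers higher than in normal liver and none lower. Beside this and the marker counts that follow, 24.9% of all genes were higher and 23.8% lower in floxed tumours, and 18.1% and 16.6% in deleted tumours. Quiescent stellate cell markers summed to 92.2 to 314 CPM, 79.6 to 156 CPM and 125 to 176 CPM, with none of 8 higher and 1 lower in each comparison with normal liver. Cholangiocyte markers summed to 60.3 to 1765 CPM, 205 to 6104 CPM and 67.2 to 78.8 CPM, with 3 and 1 of 5 higher, and Spp1 made up most of each tumour's sum, such as 6024 CPM in deleted tumour 2. The cholangiocyte keratins stayed low, Krt7 at or under 4.23 CPM and Krt19 at or under 4.66 CPM in every library. None of these markers was at 0 in all libraries, and their part in the collagen differences was not tested.

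Genes that make, bind or degrade collagen were read from 6 lists with 85 entries, beside the shares of all genes called (24.9% higher and 23.8% lower in floxed tumours against normal liver, 18.1% and 16.6% in deleted tumours, 4.45% and 3.33% between the tumour groups). Of 18 tested genes of chain modification and folding, 5 were higher and 2 lower in floxed tumours than in normal liver (list median log2 fold change 0.67), 5 were higher and 1 lower in deleted tumours (0.59), and none passed between the tumour groups. Crtap, a partner of prolyl 3-hydroxylase, rose in floxed tumours (1.48 ± 0.35, edgeR adjusted p = 0.00638), and Serpinh1, the collagen chaperone HSP47, rose in deleted tumours (1.40 ± 0.33, edgeR adjusted p = 0.0123). Of 11 tested genes of procollagen trimming and cross-linking, 1 was higher and 1 lower in each comparison with normal liver, the same 2 genes both times. Adamts14, which removes procollagen N-propeptides, was at 1.42 to 1.83 CPM in normal liver, 12.3 to 48.1 CPM in floxed tumours and 3.77 to 14.4 CPM in deleted tumours. It was lower in deleted than in floxed tumours (-1.72 ± 0.40, edgeR adjusted p = 0.0207), the only one of the 11 to pass there. Bmp1, which removes C-propeptides, fell in both tumour groups (-0.68 ± 0.22, edgeR adjusted p = 0.023, and -0.71 ± 0.11, edgeR adjusted p = 0.00297).

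Among basement membrane partners, 3 of 16 tested genes were higher and 3 lower in floxed tumours than in normal liver, 3 were higher and 1 lower in deleted tumours, and none passed between the tumour groups. Lama5, a laminin chain, was at 6.11 to 7.90 CPM in normal liver, 90.5 to 166 CPM in floxed tumours and 39.2 to 116 CPM in deleted tumours. Nid1, which links laminin to type IV collagen, was at 13.4 to 22.0 CPM, 181 to 373 CPM and 76.5 to 255 CPM in the same order. Both rose in floxed tumours (Lama5 4.10 ± 0.25, Nid1 4.07 ± 0.30) and in deleted tumours (Lama5 3.38 ± 0.36, Nid1 3.24 ± 0.47), without overlap with normal liver. Lama3, the epithelial laminin chain, fell from 9.50 to 13.3 CPM in normal liver to 0.599 to 2.87 CPM in tumours.

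Among 14 tested fibril partners, 4 were higher and 1 lower in floxed tumours than in normal liver, and 3 of 15 were higher in deleted tumours. Thbs1 and Tnc, matricellular proteins of remodelling tissue, rose in both (Thbs1 3.91 ± 0.66 and 2.67 ± 0.70, Tnc 3.09 ± 0.70 and 2.13 ± 0.53). Between the tumour groups, Fn1, which encodes fibronectin, was lower in deleted tumours (-0.80 ± 0.21, edgeR adjusted p = 0.0337), and Ogn, a small leucine-rich proteoglycan, was higher (1.94 ± 0.47, edgeR adjusted p = 0.026). Fn1 was at 1865 to 3372 CPM in floxed and 935 to 1525 CPM in deleted tumours, without overlap.

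Of 9 collagen receptors tested, 5 were higher than in normal liver in each tumour group, 4 did not pass and none was lower. Ddr1, a collagen-activated receptor kinase, was at 1.82 to 2.77 CPM in normal liver, 20.1 to 54.6 CPM in floxed tumours and 10.7 to 70.9 CPM in deleted tumours. Itga2, a subunit of a collagen-binding integrin, was under 3 counts in every normal liver (0 to 0.0985 CPM), so no fold is given against it, and stood at 0.994 to 2.19 CPM in floxed and 0.215 to 0.892 CPM in deleted tumours. It was lower in deleted than in floxed tumours (-1.37 ± 0.33, edgeR adjusted p = 0.024). Genes of collagen breakdown and its inhibitors were higher in 6 of 9 tested cases in floxed and 5 of 9 in deleted tumours, with none lower. Timp1, an inhibitor of matrix metalloproteinases, rose by a log2 fold change of 4.68 ± 1.27 (edgeR adjusted p = 0.0119) and 3.81 ± 1.01 (edgeR adjusted p = 0.0187), and the collagenase Mmp13 by 3.78 ± 1.10 (edgeR adjusted p = 0.0169) and 3.13 ± 1.04 (edgeR adjusted p = 0.0426). Both spread widely. Timp1 was at 0.162 to 0.295 CPM in normal liver, 1.15 to 22.3 CPM in floxed and 0.820 to 10.4 CPM in deleted tumours. Mmp13 was at 0.611 to 0.650, 1.85 to 34.3 and 1.29 to 13.5 CPM in the same order. How far these rises rest on single tumours was not tested. No gene of this list passed between the tumour groups, and the smallest adjusted p there was 0.101 (Mmp14, edgeR).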

How the data were processed

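Poly-A RNA of 12 tumours and 3 normal livers was made into TruSeq libraries, per the labels' protocols. The values are raw counts per gene symbol as the authors deposited them, without normalization. The submitters' processing notes name build mm9 and the tools HTSeq 0.6.1, TopHat2 2.1.0, Bowtie2 2.2.4 and bcl2fastq 1.8.4. Tool settings, annotation, strand and the handling of multi-mapped reads: not given in the sources used here.

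Groups came from the labels. In R 4.3.3, edgeR 4.0.16 was fitted to the whole table for each pair of groups (filterByExpr, TMM, robust quasi-likelihood F test, group as the only term), with Benjamini-Hochberg adjustment over all genes tested and a threshold of 0.05. The filter kept 27 of the 43 collagens between tumour groups and 29 in each comparison with normal liver. SEs were derived from the F statistic. Values per kilobase use merged exons of the GENCODE basic annotation, on GRCm38 rather than mm9. The fit was tested on simulated data. Library totals set the precision of a CPM value, and floors cover counting error only. Replicates differed by a chi-square per degree of freedom of at least 26.3, so none repeats the counts of another. That does not show that they came from separate animals. Alternatives were other scalings and filters, DESeq2 1.42.0, voom with sample weights (limma 3.58.1), all 15 libraries in 1 fit, a replicate block, and leaving out libraries.

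Named are collagens called in any comparison or with a group mean of at least 10 CPM (23 genes), and partner genes from the up to 4 with the smallest p per list and comparison. Col2a1, Col4a6, Col11a1, Col11a2, Col17a1, Col20a1, Col22a1 and Col23a1 were named after their values were seen. The members and lists were chosen with earlier results of these data known. Of the partner and marker entries, 7 matched by synonym.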

Additional observations from a re-analysis of the deposited data

Results flagged for a closer look

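Within each tumour group, the 23 named collagens and the Col1a1 to Col1a2 and Col3a1 to Col1a1 ratios were searched for 1 library far from the other 5 on a log scale, in 50 groups of values. The search marked 11, where chance marks about 1 in 20 groups, and 10 of the 11 were floxed tumour 5. In that library Col1a1 (427 CPM), Col1a2 (399 CPM), Col3a1 (538 CPM), Col4a2 (274 CPM), Col5a1 (75.2 CPM), Col5a2 (88.5 CPM), Col6a1 (112 CPM), Col6a2 (72.0 CPM) and Col6a3 (112 CPM) stood above the other floxed tumours, and Col18a1 (371 CPM) stood below them. Among deleted tumours, Col14a1 stood above the rest in tumour 1 (76.3 CPM). These genes share 1 library, so they are not separate observations.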

How the results depend on the processing

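Col4a3, Col4a4 and Col18a1 kept their calls against normal liver in all 19 other settings for floxed tumours and all 21 for deleted tumours, and Col4a5 did so for floxed tumours. Between the tumour groups, the count of collagens called went from 0 to 1 with library totals alone, 3 with DESeq2, 2 with voom, 2 with all 15 libraries in 1 fit, and 1 without deleted tumours 3, 4 and 6, and ranged from 0 to 2 when single libraries were left out. For floxed tumours against normal liver it was 12, and 5 to 19 when single libraries were left out, the top value without floxed tumour 5 and the lowest without any 1 normal liver. For deleted tumours against normal liver it was 8, with 16 by DESeq2, 19 without deleted tumours 3, 4 and 6 and 15 with numbers 1 to 3 alone, and 3 to 13 when single libraries were left out (3 without any 1 normal liver, 4 without deleted tumour 1, 5 without deleted tumour 5 and 13 without deleted tumour 6). The settings that left out deleted tumours 3, 4 and 6, or 2 and 5, and the fits of numbers 1 to 3 without a block were chosen after seeing the data. Deleted tumours 3, 4 and 6 had the lowest Col1a1 of their group (13.4, 20.8 and 19.9 CPM). The larger count without them is therefore not independent of the collagen values and does not add support. Over all genes between the tumour groups, library totals called 1239, DESeq2 2063, voom 1511 and the fit of all 15 libraries 1629. Leaving out single libraries gave 589 to 1054 there, and 4860 to 6966 for floxed and 2113 to 4912 for deleted tumours against normal liver. For deleted tumours against normal liver, DESeq2 called 5929 of 18256 genes. The fit without deleted tumours 3, 4 and 6 called 6462 of 13534, and numbers 1 to 3 alone 3679 of 13323.

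Without floxed tumour 5, Col6a1 turned to a log2 difference of 1.59 between the tumour groups and to -1.57 against normal liver, and Col6a2 to -1.10. When single libraries were left out, these values ranged from -1.06 to 1.59 for Col6a1 between the tumour groups, and against normal liver from -1.57 to 1.11 for Col6a1 and from -1.10 to 1.55 for Col6a2. With a replicate block, which against normal liver holds only numbers 1 to 3 and so leaves out that library, Col6a1 was at -1.56 and Col6a2 at -1.19, and with numbers 1 to 3 without the block they were at -1.45 and -1.16. The replicate block gave 1 collagen called between the tumour groups, 16 for floxed and 13 for deleted tumours against normal liver. Over all genes it called 860 of 13433, 6579 of 13260 and 3055 of 13323 in the same order. Deviations of same-numbered tumours correlated weakly (from -0.27 to 0.23), and 2 of 6 deleted tumours correlated best with their own number. These values show no clear pairing but cannot exclude it, and the labels do not say whether equal numbers pair samples. Of 1502 values of named collagens and ratios in other settings, called or not, 103 changed sign with no call in either fit. These 103 values came from 28 of 75 results. The causes were not tested. Depth limits the low levels: over the 3 normal livers, Col6a5 had 23 counts, Col4a4 25, Col8a1 49 and Col4a3 62.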
